A study of Mus musculus with 3 samples.

Results

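The transcripts Mcmdc2, Il12rb2, Tapbpl, Pram1 and Rab26os were followed in mouse embryonic stem cells exposed to tubercidin. They were chosen by symbol, and because their levels in these same libraries stood far above the control, so their ratios to the control are given as a description and nothing was tested. They are 5 of the 32285 genes listed, and all 5 passed the filter on low values, which kept the 7884 genes that averaged 10 or more CPM over the libraries (CPM being counted molecules scaled to the same total in each library). Because the members' treated levels carried them past that filter, passing it is no result. The label under which they were grouped places the highest level of Tapbpl at 3 h and of the others at 6 h, and the CPM values below have that order.

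The cells were of the E14 line (129/Ola background), grown with serum and leukaemia inhibitory factor, and each of the 3 conditions was 1 library of droplet-captured single cells read from the 3′ end of polyadenylated RNA. From 24 h after seeding, 1 culture received 10 uM tubercidin for 3 h, another 10 uM tubercidin for 6 h, and the control an equal volume of the solvent DMSO for 6 h, so the 3 h culture had no solvent control of its own duration. Tubercidin is an analogue of adenosine with a carbon in place of a nitrogen in the purine ring, and cells can build it into nucleic acids. With 1 library per condition, the spread between cultures is unknown, no p-value is given, and every interval is an exact 95% interval for counting error alone.

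The members are known from different settings. Mcmdc2 encodes an atypical relative of the MCM replicative helicase subunits that is needed for meiotic recombination. Il12rb2 is the signalling chain of the interleukin-12 receptor of T and NK cells, Tapbpl encodes a tapasin-related editor of the peptides carried by MHC class I, and Pram1 encodes an adaptor protein of myeloid cells. Rab26os is a non-coding RNA read from the strand opposite Rab26, a small GTPase gene of secretory vesicles.

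Called cells numbered 2031 to 2926 per library, and together held 104892739 unique molecular identifiers (UMIs, each standing for 1 captured RNA molecule) in the control. The 3 h library had 29892000 and the 6 h library 24681924. A median control cell had 4.08 times the UMIs of a median 3 h cell and 6.05 times those of a median 6 h cell, so a CPM value, which divides by the library's total, and a mean per cell give different pictures, and both are given below. A count of 0 allows a level of up to 0.0286 CPM (control), 0.100 CPM (3 h) and 0.122 CPM (6 h), 3 counts in each library. Each pair of libraries had 1 called barcode in common. The 12 stem cell markers summed to 4733 CPM (control), 5504 CPM (3 h) and 4179 CPM (6 h), the order in which library values are given from here on, and all 12 averaged over 1 CPM. None of them was 2-fold higher at either time, while Sox2 and Fgf4 were 2-fold lower at both and Klf4 at 6 h. Of 16 blood cell markers, 11 averaged under 1 CPM, and Nkg7 and Lyz2 had no UMI in any library. Of the 8 fibroblast and 7 2-cell-like markers 0 averaged 1 CPM or more over the libraries, and of the 7 primitive endoderm and 7 trophoblast markers 1 each did.

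Il12rb2, Pram1 and Rab26os were highest at 6 h by CPM, as was Mcmdc2. The 250 bases before the RefSeq start are shown for the first 3, the members for which these bases were at hand. Their upstream sequences can so be compared. They come from the RefSeq promoter table (GRCm38.p6), which held 3 of the 5 members (Pram1 with 2 starts, of which the one at the annotated gene start is used), and are written 5′ to 3′ on the gene's strand with the motif matches in capitals. Il12rb2 is chr6:67376189-67376438 on the minus strand, Pram1 is chr17:33637806-33638055 on the plus strand, and Rab26os is chr17:24528001-24528250 on the plus strand.
Il12rb2: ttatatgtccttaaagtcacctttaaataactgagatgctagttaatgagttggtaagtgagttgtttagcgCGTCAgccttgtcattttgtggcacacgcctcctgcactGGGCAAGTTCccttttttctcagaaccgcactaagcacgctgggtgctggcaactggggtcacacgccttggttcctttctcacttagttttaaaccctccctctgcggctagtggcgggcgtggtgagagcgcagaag
Pram1: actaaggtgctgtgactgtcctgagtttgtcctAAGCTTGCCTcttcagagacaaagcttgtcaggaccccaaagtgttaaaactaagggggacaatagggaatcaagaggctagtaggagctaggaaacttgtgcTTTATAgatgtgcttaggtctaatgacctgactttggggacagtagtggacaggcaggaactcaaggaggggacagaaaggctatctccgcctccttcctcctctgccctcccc
Rab26os: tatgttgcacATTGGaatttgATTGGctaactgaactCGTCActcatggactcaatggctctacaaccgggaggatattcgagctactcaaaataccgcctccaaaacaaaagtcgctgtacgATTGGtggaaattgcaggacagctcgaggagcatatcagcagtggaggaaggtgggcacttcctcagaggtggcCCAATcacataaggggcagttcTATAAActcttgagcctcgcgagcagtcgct

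A set of 7 motifs was searched on both strands: the TATA box TATAAA, the GC box GGGCGG, the CCAAT box (CCAAT), the E-box CACGTG, the cAMP response element core TGACG, the AP-1 site TGANTCA and the decamer of the p53 response element. No motif was found in all 3 windows, and no 2 matches overlapped. Rab26os held TATAAA with its first base at -31 on the gene's own strand, a CCAAT at -53 and 3 more on the other strand, and 1 TGACG match. Il12rb2 held 1 TGACG match at -178 and 1 p53 decamer at -139. Pram1 held TATAAA on the opposite strand at -114 and a p53 decamer at -217. These letters are common. Among 27025 tabulated promoters 13.0% held TATAAA, 34.5% CCAAT, 17.9% TGACG and 7.18% a p53 decamer. The GC box (32.9% of promoters), the E-box (6.05%) and the AP-1 site (6.87%) had no match in these 3 windows. A match is a description of the sequence and does not show that a factor binds there. The base composition also differed, with 10 CpG pairs each in the Il12rb2 and Rab26os windows and 1 in that of Pram1, at a GC content of 50% (Il12rb2), 50% (Pram1) and 49.2% (Rab26os), beside a median of 52% over all promoters.

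Relative to the library totals, all 5 members were at least 2-fold higher than in the control at both times (log2 ratio of CPM + 1 of at least 1). Of all 7884 genes, 0.888% were so at 3 h and 2.33% at 6 h. Only 44 genes met the rule at both times, the 5 members among them. These counts rest on the contrast that selected the members, so nothing is read from them. From 3 h to 6 h the courses parted: Tapbpl was 2.85-fold lower (interval 2.57 to 3.17), while Il12rb2 was 2.21-fold higher (1.95 to 2.50), Pram1 2.03-fold (1.81 to 2.27), Rab26os 1.92-fold (1.79 to 2.06) and Mcmdc2 1.46-fold (1.34 to 1.60). On the log2 scale of CPM + 1 this made 1 member 2-fold higher, Il12rb2 at 1.09, where 1.64% of all genes were, and 1 member 2-fold lower, Tapbpl at -1.47, where 0.165% were. Only 4 genes lay below Tapbpl in that comparison. Pram1 at 0.97 and Rab26os at 0.92 lay just under the 2-fold line and Mcmdc2 at 0.53 further below. This order after 3 h depended in part on the scaling: with median-of-ratios or TMM factors, which moved the median of all genes by -0.22 and -0.21, 0 members were 2-fold higher at 6 h than at 3 h, and Tapbpl stayed lower, at -1.69 and -1.68.

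**Figure D1:**
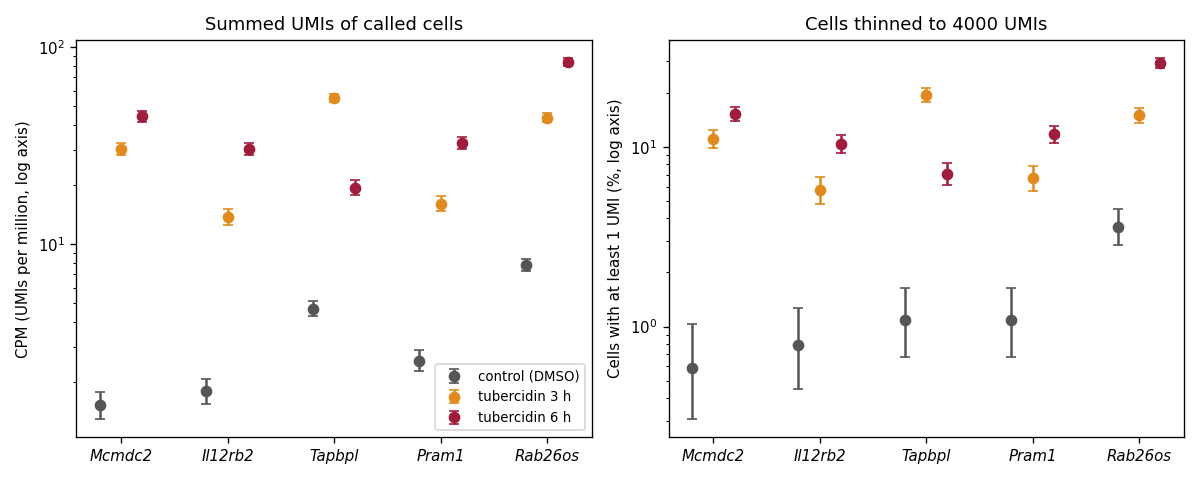
Levels of the 5 genes in the control, 3 h and 6 h libraries, as CPM of the summed UMIs of called cells (left, log axis) and as the percentage of cells with at least 1 UMI after thinning each cell to 4000 UMIs (right, log axis); points are single libraries and bars are exact 95% intervals for counting error. In both panels the control lies lowest for each gene, Tapbpl is highest at 3 h (55.1 CPM, 19.4% of cells) and the other genes are highest at 6 h.

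**Figure D2:**
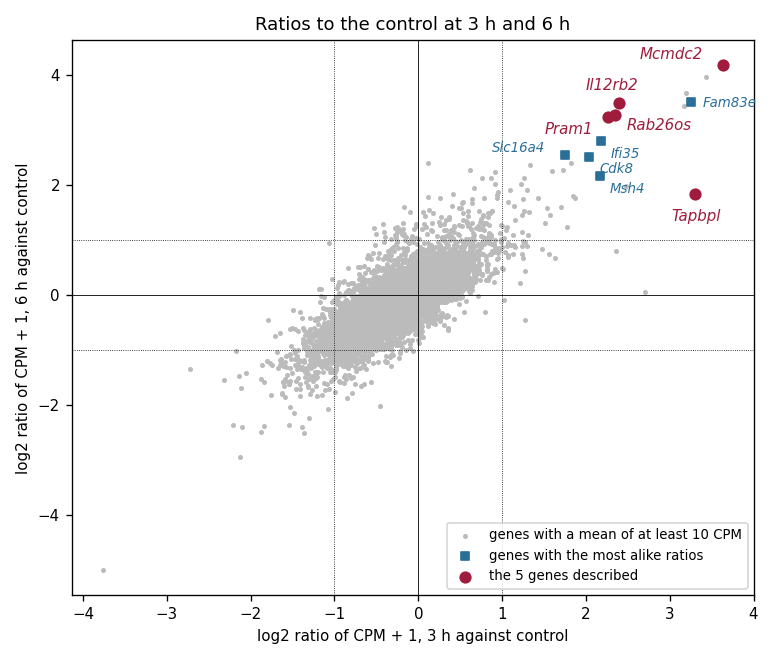
Log2 ratio of CPM + 1 at 3 h (x axis) and 6 h (y axis) against the control for the 7884 genes that passed the filter, with dotted lines at 2-fold; both axes share the control library. The 5 genes described (red circles) lie in the upper right corner, Mcmdc2 at 3.64 and 4.17, and Tapbpl apart from the rest at 3.30 and 1.84. Blue squares mark the genes with the most alike ratios among those with established names.

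Per cell, without any scaling, the picture was narrower. At 3 h Mcmdc2 had 4.90-fold (4.13 to 5.84) and Tapbpl 2.88-fold (2.60 to 3.19) as many UMIs per cell as the control, and these 2 members met the 2-fold rule, which 0.0761% of all genes, 6 in number, did. At 6 h Mcmdc2 (4.78-fold, 4.05 to 5.69) and Il12rb2 (2.76-fold, 2.35 to 3.25) met it, again beside 0.0761% of all genes. Pram1 stood at 1.53-fold (1.32 to 1.79) at 3 h and 2.07-fold (1.80 to 2.39) at 6 h, and Rab26os at 1.37-fold (1.26 to 1.50) and 1.76-fold (1.62 to 1.91). Pram1 at 6 h was not counted because the pseudocount left its log2 ratio at 0.83. Tapbpl at 6 h was the exception, lower per cell by 1.49-fold than the control (ratio 0.673, interval 0.592 to 0.765), against 4.12-fold higher by CPM. The median log2 ratio of all genes on this scale was -2.16 at 3 h and -2.53 at 6 h. Read totals were not used here, and RNA content per cell and sequencing depth cannot be told apart.

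Mcmdc2 (ENSMUSG00000046101, chr1:9908638-9942085, plus strand, 15 merged exons in GENCODE M21) had the largest ratio of all 7884 genes at both times. Its UMIs numbered 159 (control), 907 (3 h) and 1096 (6 h), which is 1.52, 30.3 and 44.4 CPM, or 0.0783, 0.384 and 0.375 UMIs per cell. The control was lowest on every scale, and 6 h was above 3 h by CPM, while per cell they differed by less than the counting interval (ratio 0.977, 0.894 to 1.07). The fold over the control was 20.02 (16.9 to 23.8) at 3 h and 29.3 (24.8 to 34.8) at 6 h. At least 1 UMI of Mcmdc2 was found in 139 of 2031 control cells (6.84%), in 714 of 2365 treated for 3 h (30.2%) and in 834 of 2926 treated for 6 h (28.5%). After thinning each cell to 4000 UMIs, so that cells were read at 1 depth, the shares were 0.591% (0.306 to 1.03), 11.1% (9.79 to 12.4) and 15.2% (13.8 to 16.6). Most positive cells held a single UMI: 558 of the 714 at 3 h and 627 of the 834 at 6 h, with at most 6 and 5 UMIs in a cell. In the control 1 cell held 9 of the 159 UMIs, and without it the folds were 21.2 and 31.0, with no treated cell left out.

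None of the genes listed as MCM family beside Mcmdc2 passed the 2-fold line. Of these 11 genes, Mcm10, Mcmbp and BC030867 among them, all were at or above 1 CPM. Among them 0 were 2-fold higher and 0 were 2-fold lower at either time. Their median log2 ratios were -0.16 at 3 h and -0.07 at 6 h, beside -0.25 and -0.09 over all genes that averaged 1 CPM or more. The highest at 6 h was Mcm7, a subunit of the replicative helicase (405 CPM in the control, 499 at 3 h, 705 at 6 h), and the lowest was Mcm9, which acts in DNA repair (23.8, 14.6 and 11.7 CPM). Among 23 genes of meiotic recombination 18 were at 1 CPM or more, and 1 was 2-fold higher at each time, Msh4, which stabilises recombination intermediates (3.92, 21.1 and 21.1 CPM). Meioc, a regulator of the meiotic programme, was 2-fold lower at 3 h (8.43, 2.94 and 5.27 CPM). The lowest at 6 h was Dmc1, the meiotic strand-exchange protein, at a log2 ratio of -0.93. Of 12 germ cell markers, 9 were at 1 CPM or more and 0 were 2-fold higher or lower than the control, with Nanos3 highest at 6 h (0.73) and Sycp3 lowest (-0.59). The germ cell list summed to 177, 163 and 145 CPM.

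Around Mcmdc2, the nearest gene upstream on the same strand, Sgk3, ends 7792 bp before its start and stood at 11.3, 6.89 and 8.22 CPM. Snhg6, on the other strand, overlaps the last 127 exonic bases of Mcmdc2 and went the opposite way (28.2, 13.3 and 10.0 CPM). The 1700034P13Rik transcript further upstream was at 1.46, 2.91 and 1.82 CPM and Tcf24 downstream at 1.00, 0.468 and 0.608 CPM. Mcmdc2 was thus the single gene of its surroundings past 2-fold upward at either time.

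Il12rb2 (ENSMUSG00000018341, chr6:67291318-67376188, minus strand, 17 merged exons) had 188 UMIs (control), 410 (3 h) and 747 (6 h). This is 1.79, 13.7 and 30.3 CPM, and 0.0926, 0.173 and 0.255 UMIs per cell. The 3 libraries had the same order on both scales, with 6 h highest. The fold over the control was 7.65 (6.42 to 9.14) at 3 h and 16.9 (14.4 to 19.9) at 6 h. Its ratio ranked 9th of 7884 at 3 h and 5th at 6 h. Positive cells were 138 of the control (6.79%), 344 of the 3 h (14.5%) and 586 of the 6 h library (20.03%), and after thinning the shares were 0.788% (0.451 to 1.28), 5.75% (4.82 to 6.80) and 10.4% (9.27 to 11.6). In the control, 4 cells with 5 to 9 UMIs held 27 of the 188 UMIs, and without them the folds were 8.92 and 19.7, again with all treated cells kept. The level was uneven with depth: with the cells of a library put into 3 equal classes by their UMIs, the shallowest class at 3 h stood at 22.0 CPM, the middle one at 13.4 and the deepest at 10.8, and at 6 h these were 39.6, 34.1 and 24.1. It also differed by mitochondrial share, with 9.63, 12.9 and 20.7 CPM at 3 h from the lowest to the highest class, and 27.7, 26.8 and 37.6 at 6 h. Il12rb2 was not alone in this. At 3 h the classes from shallowest to deepest stood at 41.4, 29.1 and 27.0 CPM for Mcmdc2, at 69.3, 61.6 and 45.7 CPM for Tapbpl, and at 20.7, 15.4 and 14.6 CPM for Pram1. By mitochondrial share Pram1 was at 13.9, 14.5 and 21.2 CPM. The part of cell quality in the members' values was not tested.

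Of the genes listed beside Il12rb2, 1 passed the 2-fold line. Among 25 genes of the interleukin-12 family and its receptors, 12 were at 1 CPM or more, and their median log2 ratios were -0.32 at 3 h and -0.13 at 6 h. At 3 h 0 were 2-fold higher or lower, and at 6 h 1 was higher: Il27, the p28 subunit gene of interleukin-27, at 6.16, 5.35 and 14.7 CPM. Stat4, which relays the interleukin-12 signal, was at 9.64, 5.25 and 6.44 CPM, and the kinase genes Jak2 and Tyk2 at 4.26, 2.78 and 2.80 and at 10.0, 8.23 and 8.51 CPM. Jak1 had the lowest ratio at 6 h (-0.57). Il12rb1, of the same receptor family, averaged under 1 CPM and so was not in these counts (1.33, 0.569 and 0.770 CPM). Il12a and Ifng had no UMI in any library. Beside these, the 16 blood cell markers summed to 58.2, 118 and 126 CPM, and among the 5 at 1 CPM or more, Laptm5 (39.4, 83.1 and 93.9 CPM) was 2-fold higher at both times and Cd68 (8.97, 22.4 and 17.5 CPM) at 3 h. Cd3e, a defining gene of T cells, had the lowest ratio of these 5 at 6 h (1.33, 1.44 and 1.54 CPM). Of the blood cell markers that averaged under 1 CPM, Csf1r was 2-fold higher at 6 h (0.0381, 0.569 and 1.09 CPM, from 4, 17 and 27 UMIs). Cd4 was 2-fold lower at 6 h (1.91, 0.468 and 0.446 CPM). The part of blood cell RNA in the Il12rb2 and Pram1 values was not tested.

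At its 3′ end Il12rb2 shares 1519 exonic bases with Serbp1, a gene of the opposite strand at 2009, 2085 and 2504 CPM. Whether counting used strand is not given in the sources used here, and without strand reads from the 2 genes cannot be told apart in that stretch. Serbp1 itself was 1.04-fold (1.03 to 1.05) and 1.25-fold (1.23 to 1.26) over the control. Il23r, the next gene upstream on the same strand, had 10, 1 and 1 UMIs. The non-coding Gm38825 was at 4.75, 9.84 and 9.28 CPM, and Gm42889 at 2.24, 1.91 and 5.67 CPM, 2-fold higher at 6 h.

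Tapbpl (ENSMUSG00000038213, chr6:125223933-125231860, minus strand, 7 exons) was the member with a peak at 3 h. Its UMIs numbered 492 (control), 1648 (3 h) and 477 (6 h). This is 4.69, 55.1 and 19.3 CPM, and 0.242, 0.697 and 0.163 UMIs per cell. The control was thus lowest by CPM, while per cell 6 h was lowest. The fold over the control was 11.8 (10.6 to 13.0) at 3 h, ranked 3rd of 7884, and 4.12 (3.63 to 4.68) at 6 h, ranked 30th. Positive cells numbered 170 (8.37%), 1056 (44.7%) and 426 (14.6%). After thinning the shares were 1.08% (0.680 to 1.64), 19.4% (17.8 to 21.1) and 7.04% (6.09 to 8.08). A second random draw gave 1.67% for the control, which the interval of the first just misses.

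How Tapbpl was spread over cells differed between the libraries. In the control, 23 of 2031 cells (1.13%, Clopper-Pearson interval 0.719 to 1.69) had 5 or more UMIs of Tapbpl, between 5 and 28 with a median of 11. These cells held 296 of the 492 UMIs (60.2%), so that Tapbpl stood at 254 CPM in them and at 1.89 CPM in the other control cells. At 3 h 21 cells had 5 or more UMIs, none over 6, and at 6 h 0 cells did, but these cells were shallower. By level, 24 control cells (1.18%), 505 cells at 3 h (21.4%) and 254 at 6 h (8.68%) had at least 107 CPM of Tapbpl, the lowest level among the 23 cells. In a median cell 1 UMI is already 84.2 CPM at 3 h and 125 CPM at 6 h, so these counts are not read as a difference. The ratio of variance to mean of its UMIs per cell, which grows with depth, was 9.98 (control), 1.39 (3 h) and 1.08 (6 h), and after thinning 2.10, 1.09 and 1.06. For the other members it lay between 1.07 and 2.21 in all libraries, and after thinning between 0.971 and 1.28. Had every control cell carried the library's CPM, 21.2% of cells of these depths would hold a UMI, in place of the 8.37% found. The same value was 47.8% for the 3 h library, where 44.7% were found, and 14.8% for the 6 h library, where 14.6% were found. Without the 23 cells the fold over the control was 29.2 (25.1 to 34.0) at 3 h and 10.2 (8.64 to 12.1) at 6 h, over 2-fold larger than with them at each time. Cells were left out of the control alone, so these folds could only rise, and the choice to leave them out was made after their values were seen.

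The median depth of the 23 control cells was 49960 UMIs, against 48391.5 in the other control cells, and 0 of them exceeded 2 times the library's median. Mitochondrial UMIs made up 2.86% in them and 2.96% in the others, and the stem cell markers summed to 4283 CPM in them and 4738 CPM in the others. Of the 12 stem cell markers, whose sum was lower in the 23 cells, only Nanog, Pou5f1 and Sox2 were compared singly. Nanog was higher in these cells beyond counting error, at 102 CPM (84.8 to 122) against 77.1 CPM. Pou5f1 at 132 CPM (112 to 154) against 137 CPM and Sox2 at 200 CPM (175 to 228) against 205 CPM were not. Gapdh, a glycolytic gene, was lower, at 2235 CPM (2150 to 2323) against 2396 CPM. These intervals do not cover the spread between the 23 cells. Of the genes next to Tapbpl, Mrpl51 was at 184 CPM (160 to 210) against 171 CPM and Ncapd2 at 58.5 CPM (45.4 to 74.1) against 63.4 CPM. Cd27 and Vamp1 had 0 UMIs in the 23 cells, against 0.916 and 2.85 CPM in the others, a difference not detectable at this depth. Tapbp, the gene of tapasin, was at 2.58 CPM (0.532 to 7.54) against 6.02 CPM. Among 6620 genes with at least 20 UMIs in the 23 cells, the largest ratios to the other cells after Tapbpl, by which the cells were picked, were those of Mgat4e and Asic4, each from 1 cell, and Tmem233, from 5 cells. The other 4 members were not raised in them beyond the counting interval, for example Rab26os at 6.88 CPM (2.97 to 13.6) against 7.80 CPM.

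**Figure D3:**
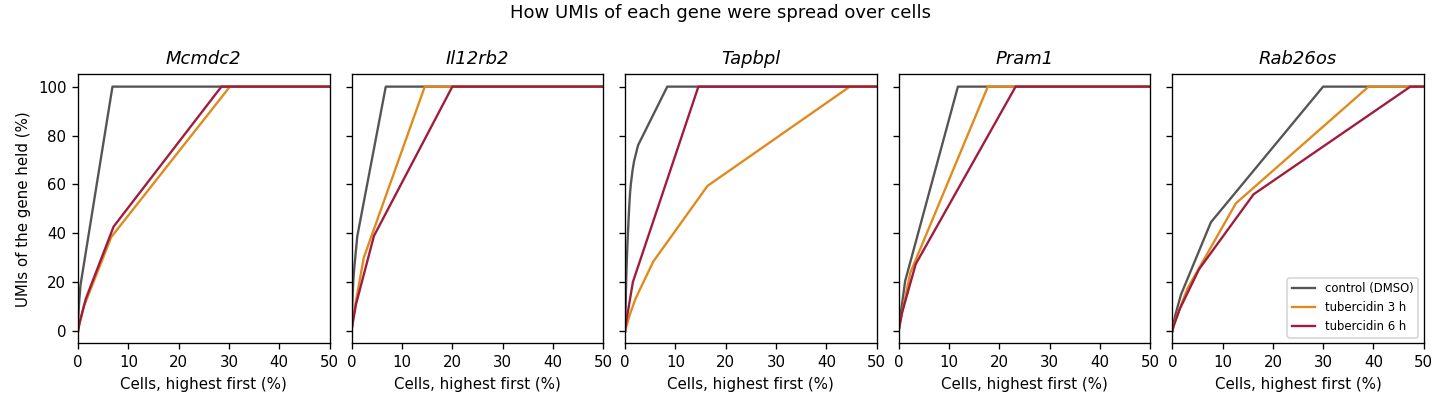
Cumulative percentage of a gene's UMIs (y axis) held by called cells ordered from highest to lowest UMIs of that gene (x axis, percentage of cells, shown to 50%), 1 panel per gene and 1 line per library. The control line of Tapbpl is the steepest, with 16 of 2031 cells holding 50% of its UMIs, whereas at 3 h 310 of 2365 cells and at 6 h 188 of 2926 cells held that share.

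Genes that act in MHC class I loading, as Tapbpl does, did not pass the 2-fold line. Of 18 such genes 13 were at 1 CPM or more, 0 were 2-fold higher and 0 were 2-fold lower at either time, and their median log2 ratios were 0.01 at 3 h and 0.17 at 6 h. Tapbp stood at 5.98, 7.66 and 8.06 CPM, B2m, the light chain of MHC class I, at 8.21, 6.46 and 4.46 CPM, and the heavy chain gene H2-K1 at 8.71, 8.76 and 5.71 CPM. Psmb10, an immunoproteasome subunit gene, had the highest ratio at 6 h (0.65) and the heavy chain gene H2-D1 the lowest (-0.87). Tapbpl lies within the span of Vamp1, a gene of the other strand with which it shares 0 exonic bases, and Vamp1 was at 2.82, 4.42 and 3.24 CPM. Cd27 ends 761 bp upstream of the Tapbpl start on the same strand. It had 95, 74 and 29 UMIs, or 0.906, 2.48 and 1.17 CPM, a 2.73-fold (1.99 to 3.74) higher level at 3 h and 1.30-fold (0.825 to 1.98) at 6 h, so its 6 h interval spans 1. With the pseudocount its log2 ratio at 3 h was 0.87. Mrpl51 (171, 172 and 193 CPM) and Ncapd2 (63.4, 39.2 and 51.4 CPM), on the other side, were not 2-fold higher.

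Pram1 (ENSMUSG00000032739, chr17:33638056-33645706, plus strand, 9 merged exons) had 268 UMIs (control), 479 (3 h) and 801 (6 h). This is 2.55, 16.0 and 32.5 CPM, and 0.132, 0.203 and 0.274 UMIs per cell. As for Il12rb2, the order was control, 3 h, 6 h on both scales. The fold over the control was 6.27 (5.39 to 7.31) at 3 h and 12.7 (11.0 to 14.6) at 6 h, ranked 12th and 8th. The numbers of positive cells were 239 (11.8%), 419 (17.7%) and 680 (23.2%), and after thinning the shares were 1.08% (0.680 to 1.64), 6.69% (5.69 to 7.80) and 11.7% (10.5 to 13.0). Variance over mean was 1.11, 1.07 and 1.09, no cell held more than 4 UMIs, and the shares of positive cells lay close to those given by an even CPM (12.3%, 18.0% and 23.4%).

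The list read beside Pram1 joins its adaptor partners with genes of retinoic acid signalling, which is known to raise Pram1 in myeloid leukaemia cells. Of its 23 genes 12 were at 1 CPM or more, 0 were 2-fold higher or lower than the control at either time, and the median log2 ratios were -0.06 and 0.24. Fyb, a related adaptor, was at 6.12, 5.22 and 6.69 CPM and Skap2, a binding partner, at 72.8, 56.4 and 63.5 CPM. Crabp1, a retinoic acid binding protein gene, had the highest ratio at 6 h (10.8, 16.3 and 20.6 CPM) and Rara, a retinoic acid receptor gene, the lowest (29.3, 21.5 and 22.2 CPM). Lyn, a tyrosine kinase gene, was 2-fold higher at 6 h than at 3 h (11.2, 6.79 and 16.5 CPM). Zfp414, which ends 6276 bp before Pram1 on the same strand, was at 13.4, 13.5 and 14.7 CPM. The annotated transcript Gm20507 starts within Zfp414 on the same strand and shares 2155 of the 2462 exonic bases of Pram1. It is not among the listed genes, so reads from it in that stretch may be counted to Pram1. The part of Gm20507 in the Pram1 UMIs was not tested. Myo1f, upstream, was at 21.01, 28.8 and 38.4 CPM, Hnrnpm, on the other strand 526 bp past the end, at 441, 376 and 539 CPM, and March2 at 25.6, 14.6 and 15.9 CPM.

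Rab26os (ENSMUSG00000093565, chr17:24528248-24528744, plus strand, 497 exonic bases) had 817 UMIs (control), 1308 (3 h) and 2072 (6 h). This is 7.79, 43.8 and 83.9 CPM, and 0.402, 0.553 and 0.708 UMIs per cell. The fold over the control was 5.62 (5.14 to 6.14) at 3 h and 10.8 (9.93 to 11.7) at 6 h, ranked 11th and 7th. In the control 609 cells were positive (30.0%), after 3 h 923 (39.0%) and after 6 h 1385 (47.3%), the last with up to 7 UMIs in a cell. After thinning the shares were 3.59% (2.83 to 4.50), 14.9% (13.5 to 16.5) and 29.3% (27.6 to 31.1). A second draw gave 2.02% for the control and 17.3% at 3 h, both outside the intervals of the first draw and with the libraries in the same order. By depth, the 3 classes of cells were at 42.2, 46.9 and 42.4 CPM at 3 h and at 83.2, 83.7 and 84.4 CPM at 6 h. In the control they were at 10.5, 7.65 and 6.57 CPM.

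The Rab26os exon contains the annotated small nucleolar RNA Snord60, a box C/D RNA of a class that guides methylation of ribosomal RNA. Snord60 is 78 bases long at chr17:24528476-24528553 on the plus strand (GENCODE M21, GRCm38), is not among the listed genes and is shown here because it lies in the exon whose UMIs are reported. The capitals mark its box C, from base 7, and its box D, from base 70.
Snord60: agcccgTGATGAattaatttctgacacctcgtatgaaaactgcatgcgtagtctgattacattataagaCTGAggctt
The first 10 bases of the RefSeq Rab26os transcript are CTTTTTGGGA, a C followed by pyrimidines, as 5′ terminal oligopyrimidine transcripts have. That start is at chr17:24528251. The annotated gene start given above, 24528248, lies upstream of it, so the C start is stated for the RefSeq start only. Among the 27025 tabulated starts 2.49% begin with C and 4 further pyrimidines. The other members in the table begin otherwise, Il12rb2 with GGACTTCCCC and Pram1 with AGCCCAACAG.

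Rab26, which spans Rab26os on the other strand without shared exonic bases, was at 3.68, 9.37 and 9.52 CPM, 2.55-fold (2.17 to 2.98) and 2.59-fold (2.19 to 3.05) over the control. Unlike Rab26os it had nearly the same level at both treated times. AC132367.1, a non-coding transcript 5117 bp past Rab26os on the same strand, had 43, 41 and 72 UMIs, or 0.410, 1.37 and 2.92 CPM, 7.12-fold (4.81 to 10.6) at 6 h. Traf7, whose start faces that of Rab26os across 309 bp, was at 37.9, 41.2 and 39.3 CPM, and Caskin1 at 0.639, 0.703 and 0.608 CPM. Of 16 genes for RAB26 and other secretory RAB proteins, 12 were at 1 CPM or more. At each time 1 was 2-fold higher, Rab26, and 1 was 2-fold lower, Rab3a, a GTPase gene of regulated exocytosis (11.3, 1.44 and 2.39 CPM). The median log2 ratios were 0.00 and 0.07.

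Over all members, 20 neighbouring genes were listed, of which 17 were at 1 CPM or more. At 3 h 1 neighbour was 2-fold higher (Rab26) and 1 lower (Snhg6). At 6 h 3 were higher (Rab26, AC132367.1 and Gm42889) and 1 lower (Snhg6). Their median log2 ratios were 0.05 and 0.19, beside -0.25 and -0.09 over all genes that averaged 1 CPM or more. AC132367.1 was 3.35-fold (2.13 to 5.26) over the control at 3 h, but with the pseudocount its log2 ratio was 0.75.

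**Figure D4:**
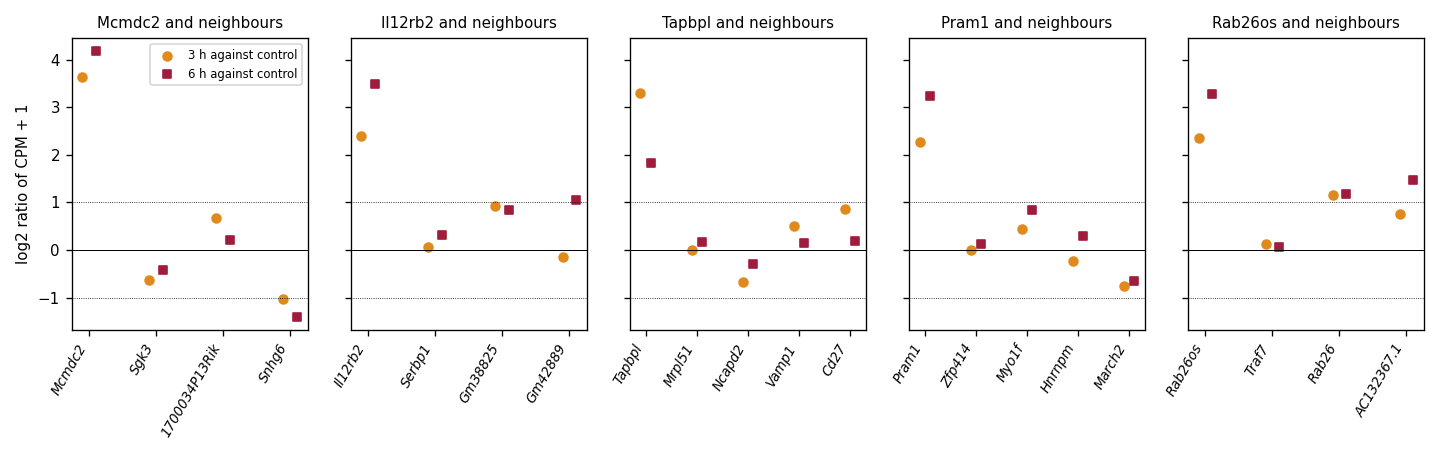
Log2 ratio of CPM + 1 against the control at 3 h (circles) and 6 h (squares) for each of the 5 genes, at the left of its panel, and for its nearest annotated neighbours with a mean of at least 1 CPM; dotted lines mark 2-fold and each point compares single libraries. The members lie between 1.84 and 4.17, and all neighbours lie between -1.40 and 1.47.

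After thinning, 1 or more members were found in 6.84% of the control, 45.3% of the 3 h and 55.6% of the 6 h cells. At least 2 members were found in 6 of 2031 control cells (0.295%), in 239 of 2243 treated for 3 h (10.7%) and in 405 of 2642 treated for 6 h (15.3%), where the product of the separate shares gives 0.170%, 10.3% and 15.4%. At least 3 were found in 0 control cells, 40 cells at 3 h (1.78%, where the product gives 1.14%) and 69 cells at 6 h (2.61%, where it gives 2.16%). Without thinning all 5 were found in 14 cells at 3 h (0.592%, where the product gives 0.136%) and 10 at 6 h (0.342%, where it gives 0.0914%). The pair Il12rb2 and Pram1 was found together in 18 cells at 3 h and 45 at 6 h, where the product of shares gives 8.63 and 32.3 cells. At 3 h every other pair except Tapbpl and Pram1 lay above the product, for example Mcmdc2 and Il12rb2 in 20 cells (product 14.3). The other pairs at 6 h lay on either side of it. At 6 h Mcmdc2 and Rab26os were together in 135 cells (product 117), Il12rb2 and Rab26os in 65 (80.6) and Mcmdc2 and Tapbpl in 20 (28.2). At 3 h Tapbpl and Pram1 were together in 24 cells (29.2). These are descriptions over cells of 1 library each, whose depth the members share.

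The genes whose pair of log2 ratios lay closest to those of the members were few and largely the same, among 7601 candidates with established names. The members were chosen as high on these same ratios, where few genes lie, so this overlap follows from the choice and is no result. Predicted genes and clone names were left out, so a gene closer to a member may not be listed. The candidates were ranked by Euclidean distance over the 2 ratios of these 3 libraries, both of which share the control. Fam83e (0.906, 17.2 and 20.6 CPM) was closest to Mcmdc2 among the candidates, at a distance of 0.77. Per cell, the left-out 4933408B17Rik was 4.76-fold over the control at 3 h and 4.63-fold at 6 h. On that scale Mcmdc2 was at 4.90-fold and 4.78-fold, and Fam83e at 4.64-fold and 3.72-fold. Ifi35, a gene induced by interferon (1.91, 12.1 and 19.2 CPM), was closest to Il12rb2 (0.72), Pram1 (0.44) and Rab26os (0.50). Msh4, of the meiotic list above, was closest to Tapbpl at 1.18, a larger distance than those of the other members. Cdk8, a kinase gene of the Mediator complex (78.4, 326 and 452 CPM), was among the nearest 3 for each member. Its distance ran from 0.75 (Pram1) to 2.31 (Mcmdc2). Slc16a4 (4.47, 17.5 and 31.0 CPM) was among the nearest 3 of Pram1.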

How the data were processed

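The authors deposited raw counts of UMIs for every gene in every barcode, from Cell Ranger 7.1.0 on mm10, per the submitters' processing notes. The annotation release and the settings for introns and strand are not given in the sources used here. A barcode counted as a cell with 1/10 or more of the 99th percentile of UMIs among the 3000 deepest barcodes, 500 or more genes and no more than 20% mitochondrial UMIs. Doublets were kept and no caller was run; cells were not clustered. UMIs were summed over cells and scaled to CPM, and ratios used CPM + 1. Folds are given without the pseudocount, with exact conditional binomial limits; intervals are Clopper-Pearson for shares and Poisson for CPM. Thinning drew 4000 UMIs per cell and left out 0, 122 and 284 cells in the control, 3 h and 6 h. With 1 library per condition no test was run. The members and the gene lists were chosen with earlier results of these data known. Named genes were the members, their 2 nearest annotated genes on either side, the 3 genes nearest in ratio, and in each list the genes past 2-fold and those highest and lowest at 6 h; a few list genes beside these were named for their role. Positions are from GENCODE M21 (GRCm38, the build of mm10), in which 32235 of 32285 identifiers were found. Alternatives covered cell calling, scaling, free RNA, cell weights, pseudocount, filters and thinning. The ratio script was tested on simulated counts. Software was R 4.3.3 with edgeR 4.0.16 (TMM factors only) and Python 3.11.15 with scipy 1.17.1, numpy 2.4.6, matplotlib 3.10.9 and pandas 2.3.3.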

Additional observations from a re-analysis of the deposited data

Results flagged for a closer look

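Barcodes ranked by UMIs after the first 5000 and up to 15000 lie below the cell calls of every library, with medians of 343, 210 and 138 UMIs in the control, 3 h and 6 h, and can hold free RNA, debris or poor cells. Members were found in them above the level of the same barcodes of the control, beyond the counting intervals. Tapbpl was at 99.2 CPM there at 3 h and 19.8 CPM at 6 h, against 2.88 CPM in the control. The 3 h value was 1.80 times (1.55 to 2.08) that of the called cells. Mcmdc2 was at 22.0 CPM at 3 h and 12.7 CPM at 6 h (control 1.15 CPM), that is 0.725 and 0.287 times the level in cells. Il12rb2 was at 5.61 CPM at 3 h (control 0.864 CPM), 0.409 times its level in cells. Rab26os was at 44.9 CPM at 3 h and 82.8 CPM at 6 h (control 8.93 CPM), 1.03 and 0.986 times its level in cells. Pram1 at 5.61 and 5.66 CPM and Il12rb2 at 3.54 CPM at 6 h rested on 12, 8 and 5 UMIs, with intervals that overlapped those of the control. All called cells are of 1 labelled line, so no cell type without these transcripts was at hand to set beside the shares of positive cells. The part of free RNA in those shares was not tested.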

How the results depend on the processing

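No paired analysis was possible because each condition is 1 library without a replicate number, and for the same reason no library could be left out. Over 188 recalculations of the members' log2 ratios, 148 moved by less than the counting interval, 39 by more, and 1 reversed: Tapbpl at 6 h against the control, at -0.45 as UMIs per cell; on that scale Mcmdc2 at 6 h against 3 h, under 2-fold in either case, was at -0.03. Counted as UMIs per cell, 2 members were 2-fold higher at 3 h, 2 at 6 h and 0 at 6 h against 3 h; all genes then gave 6 higher and 7785 lower (3 h), 6 and 7818 (6 h), and 5 and 173 (6 h against 3 h). At 6 h against 3 h, 0 members were 2-fold higher with median-of-ratios or TMM factors, and 2 with double the UMI minimum, at most 10% mitochondrial UMIs or a pseudocount of 0.1 CPM. The main counts over all genes were 70 higher and 437 lower at 3 h (13.8% higher), 184 and 348 at 6 h (34.6%), and 129 and 13 at 6 h against 3 h (90.8%). With median-of-ratios factors 139 genes were higher and 166 lower at 3 h (45.6%), with TMM factors 126 and 202 (38.4%), and with either 57 and 45 at 6 h against 3 h (55.9%). They moved the median of all genes at 3 h by 0.23 and 0.19. At 6 h against 3 h, 23 genes were lower after subtracting free RNA and 20 with the smaller pseudocount. A mean of at least 50 CPM gave 22 and 95 (3 h), 42 and 75 (6 h), and 23 and 4 (6 h against 3 h), and no filter gave 226 and 855, 679 and 707, and 389 and 33, over fewer and more genes. Leaving out the control cells with at least 5 UMIs of Tapbpl, chosen after seeing the data as was the use of every barcode, moved its log2 ratios to 4.28 at 3 h and 2.81 at 6 h. Of 105 recalculations of thinned shares 37 moved beyond the interval, 15 of them without thinning and 13 at 2000 UMIs. The thinned control shares rest on 12 to 73 positive cells.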
